A study of Mus musculus with 8 samples.

Results

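Myelin genes of the mouse hippocampus were examined as a group of 9, namely Mbp, Mog, Mag, Mobp, Cnp, Cldn11, Mal, Ugt8a and Opalin. They were taken by exact gene symbol from a table of 24078 entries, as structural and lipid genes of the sheath. The rule uses no measured value, but the set was chosen with earlier results of these data known. Each gene had 1 entry and no duplicate row. The study sequenced whole-transcriptome RNA of the hippocampus from 4 mice homozygous for the Wfs1tm1Koks allele (replicates 15 to 18) and 4 wild-type mice (replicates 7 to 10) of the same strain label, each library from 1 animal. No transgene, drug or other agent is named for either group, and age, sex and litter are not given in the labels. Wfs1 encodes wolframin, a membrane protein of the endoplasmic reticulum whose loss in people causes Wolfram syndrome. The allele is germline, so it is carried by all cell types of the tissue and not only by oligodendrocytes.

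Myelin is the multilayered membrane that oligodendrocytes wrap around axons. In its compact part the cytoplasmic faces of the membrane are pressed together by basic proteins, and the membrane is rich in galactolipids and cholesterol. In the hippocampus it is densest in the fibre tracts, the alveus and the fimbria, with thinner coverage of the cell and dendrite layers, so the amount in a dissected piece also depends on how much tract it holds. In bulk tissue, fewer oligodendrocytes and less myelin RNA per oligodendrocyte cannot be told apart.

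Of the 9 myelin genes, 6 were lower in homozygous than in wild-type hippocampus, none was higher and 3 passed in neither direction. A gene was called at an adjusted p under 0.05, from the quasi-likelihood test of edgeR, with Benjamini-Hochberg correction across the 20478 genes that were tested. The background is high: by the same rule 20.4% of all genes tested were lower and 20.7% higher. The median log2 fold change of the 9 genes was -0.64, beside 0.05 for all genes tested. At an unadjusted p under 0.05 in edgeR, 7 of the 9 were lower and 0 higher, beside 24.6% of all genes lower and 26.0% higher. DESeq2 called 6 of the 9 lower and 0 higher, beside 19.5% and 16.6% of all genes. For limma-voom it was 5 lower and 0 higher, beside 20.5% and 19.7%. The gene that fell furthest was Cldn11, to 0.482 of its wild-type level, and the gene with no fall was Mobp, at 1.05 of it. With library totals as the only scaling 3 of the 9 were lower, beside 11.8% of all genes lower and 32.4% higher.

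The targeted gene went with the labels in each library, though the entry does not show which exons its reads lie in. In CPM, the depth-scaled count unit, here on TMM-scaled library sizes, Wfs1 stood at 16.2, 17.7, 13.3 and 12.03 CPM in homozygous replicates 15, 16, 17 and 18, against 54.6, 47.5, 61.3 and 44.6 CPM in wild-type replicates 7, 8, 9 and 10. Library totals were 3250949 to 5077114 counts in homozygous and 3296309 to 6747411 in wild-type libraries. Marker genes of the hippocampus were present in both groups, with Prox1 of dentate granule cells at 48.7 ± 7.93 and 52.2 ± 3.61 CPM and Fibcd1 of CA1 pyramidal cells at 81.05 ± 11.4 and 133 ± 19.6 CPM in homozygous and wild-type libraries (SD, n = 4 each). They were not both at like levels: Fibcd1 was lower in homozygous libraries (log2 fold change -0.71, adjusted p 0.00362 in edgeR). Prox1 passed in neither direction (-0.10, adjusted p 0.562 in edgeR). Homozygous replicate 16 and wild-type replicate 8 stood apart from the rest: 4.91% and 3.82% of genes tested were at least 1.5 times the highest of the other libraries of the same genotype there, against 0.342% to 2.25% in the other 6 libraries.

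The promoters of 4 of these genes are shown as examples with different responses: Cldn11 fell furthest, Mog fell with the smallest standard error, Opalin was lower at low counts and Ugt8a passed in neither direction. Each line gives the 250 bases before the RefSeq start on build GRCm38.p6, read from 5′ to 3′ on the gene's strand. Capitals mark the letters ACAAAG or ACAATG, a core recognised by SOX factors, and CTGGCAC or CTGGTAC, a core recognised by the myelin regulatory factor MYRF, on either strand. The windows are chr3:31149670-31149919 on the plus strand, chr17:37023399-37023648 on the minus strand, chr19:41077114-41077363 on the minus strand and chr3:125938653-125938902 on the minus strand.
Cldn11 promoter: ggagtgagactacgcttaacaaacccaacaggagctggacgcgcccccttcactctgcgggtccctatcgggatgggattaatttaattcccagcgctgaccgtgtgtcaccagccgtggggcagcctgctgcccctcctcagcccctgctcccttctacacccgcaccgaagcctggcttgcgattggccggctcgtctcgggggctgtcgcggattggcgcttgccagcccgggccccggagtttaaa
Mog promoter: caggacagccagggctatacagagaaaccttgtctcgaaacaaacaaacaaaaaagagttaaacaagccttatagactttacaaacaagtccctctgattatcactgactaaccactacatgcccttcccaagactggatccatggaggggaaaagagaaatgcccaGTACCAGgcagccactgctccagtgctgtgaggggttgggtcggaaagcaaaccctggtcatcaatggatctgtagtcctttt
Opalin promoter: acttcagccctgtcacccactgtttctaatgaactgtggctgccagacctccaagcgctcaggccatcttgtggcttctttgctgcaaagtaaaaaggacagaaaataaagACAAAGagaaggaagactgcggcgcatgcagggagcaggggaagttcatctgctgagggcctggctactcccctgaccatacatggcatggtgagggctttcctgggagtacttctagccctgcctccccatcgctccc
Ugt8a promoter: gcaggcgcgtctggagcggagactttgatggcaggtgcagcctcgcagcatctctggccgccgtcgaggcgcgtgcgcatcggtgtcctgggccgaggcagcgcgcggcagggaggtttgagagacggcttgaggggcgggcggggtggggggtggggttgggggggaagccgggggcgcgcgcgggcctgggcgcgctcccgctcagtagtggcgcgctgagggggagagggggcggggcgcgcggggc
A window was found for 8 of the 9 genes. The SOX letters were in 4 of the 8, against 25.2% of all 32851 promoter windows of that length, and the MYRF letters in 3 of the 8 (Mog, Mag and Cnp), against 5.93%. The E-box letters CANNTG (N is any base), looked for too but not marked in capitals, went the other way. They were in 4 of the 8, against 66.2% of all windows. The Mobp window, not shown, held 6 SOX matches, and the Cldn11 and Ugt8a windows held 0 of the SOX and 0 of the MYRF letters. None of the windows shown held both SOX and MYRF letters, but the Mag and Cnp windows, not shown, each held 1 match of each. These are matches of letters and not measured binding.

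Compact myelin is held together by Mbp, the myelin basic protein, which glues the cytoplasmic membrane faces. Mbp (ENSMUSG00000041607, chromosome 18, plus strand) had 512, 433, 503 and 460 CPM in homozygous replicates 15 to 18, against 1056, 661, 756 and 598 CPM in wild-type replicates 7 to 10. All homozygous libraries lay below all wild-type libraries, and the wild-type values were the more scattered. Mbp averaged 477 ± 37.1 CPM in homozygous and 768 ± 203 CPM in wild-type libraries (SD, n = 4 each). Its log2 fold change was -0.69 (SE 0.19; adjusted p 0.0134 in edgeR). The same locus also makes the Golli transcripts, found in neurons and other cells, and counts per gene symbol do not separate them.

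Mobp, the myelin-associated oligodendrocyte basic protein, is another cytoplasmic protein of the compact sheath. It lies on the plus strand of chromosome 9, from 120149707 to 120181484 of mm10. Its values were 187, 305, 158 and 127 CPM in homozygous replicates 15, 16, 17 and 18, against 228, 185, 180.5 and 144 CPM in wild-type replicates 7, 8, 9 and 10. The groups overlapped, and the spread came mostly from homozygous replicate 16, the highest of all 8 libraries. The means were 194 ± 77.9 and 184 ± 34.8 CPM in homozygous and wild-type libraries (SD, n = 4 each; log2 fold change 0.08, SE 0.25; adjusted p 0.822 in edgeR). Without homozygous replicate 16 the log2 fold change was -0.23 (adjusted p 0.341).

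Cldn11 forms the tight junctions that seal neighbouring membrane layers along the sheath. It lies on the plus strand of chromosome 3, from 31149920 to 31164324 of mm10. It had 35.9, 29.6, 39.9 and 28.2 CPM in homozygous replicates 15 to 18, against 79.1, 84.8, 60.2 and 54.5 CPM in wild-type replicates 7 to 10. The highest homozygous library was below the lowest wild-type library. The log2 fold change was -1.05 (SE 0.17; adjusted p 0.000982 in edgeR), and Cldn11 was the only one of the 9 called lower in each of the 16 alternative fits, over a range of -1.16 to -0.57.

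The genes of the non-compact and outer parts of the sheath also fell. Cnp, the cyclic nucleotide phosphodiesterase that keeps cytoplasmic channels open within myelin, had 112, 110, 121 and 93.9 CPM in homozygous replicates 15 to 18, against 205, 157, 149 and 135 CPM in wild-type replicates 7 to 10. Its groups did not overlap (log2 fold change -0.56, SE 0.15; adjusted p 0.0126 in edgeR). The 3′ part of Cnp overlaps Dnajc7, a chaperone gene on the opposite strand, with 154 bp of exon in common. Dnajc7 was lower too (29.1 ± 2.76 and 45.3 ± 6.63 CPM in homozygous and wild-type libraries, SD, n = 4 each), and since the strand setting of the counting is not given, reads in the shared stretch cannot be told apart.

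Mag, the sialic-acid-binding adhesion protein on the innermost membrane facing the axon, is on the minus strand of chromosome 7, from 30899176 to 30914873 of mm10. It stood at 72.8, 59.0, 70.3 and 48.7 CPM in homozygous replicates 15 to 18, against 147, 75.9, 117 and 87.9 CPM in wild-type replicates 7 to 10. The groups were close but apart, homozygous replicate 15 lying just below wild-type replicate 8. The log2 fold change was -0.77 (SE 0.21; adjusted p 0.0124 in edgeR).

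Mog, an immunoglobulin-like protein of the outermost myelin surface and a target of autoantibodies in demyelinating disease, had the smallest standard error of the set. It had 37.8, 32.5, 40.5 and 38.5 CPM in homozygous replicates 15 to 18, against 68.4, 54.6, 53.4 and 56.2 CPM in wild-type replicates 7 to 10. The groups did not overlap, and the log2 fold change was -0.64 (SE 0.13; adjusted p 0.00256 in edgeR). Opalin, a transmembrane sialoglycoprotein of mature oligodendrocytes, was the least abundant, with 17 to 67 counts in a library. It stood at 6.89, 7.84, 4.92 and 6.16 CPM in homozygous replicates 15 to 18, against 14.1, 8.82, 10.7 and 7.36 CPM in wild-type replicates 7 to 10. Wild-type replicate 10 was below homozygous replicate 16, so the groups overlapped, though the gene was called (log2 fold change -0.67, SE 0.24; adjusted p 0.0413 in edgeR). That call ended when wild-type replicate 7 (-0.48), wild-type replicate 9 (-0.65) or homozygous replicate 15 (-0.71), 17 (-0.58) or 18 (-0.66) was left out, with adjusted p of 0.0720 to 0.132.

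The 2 genes of lipid and raft traffic did not pass. Ugt8a, the ceramide galactosyltransferase that makes galactosylceramide, the typical myelin lipid, had 38.5, 47.6, 41.6 and 31.1 CPM in homozygous replicates 15 to 18, against 49.7, 52.2, 42.7 and 45.9 CPM in wild-type replicates 7 to 10. Homozygous replicate 16 lay within the wild-type range, and the log2 fold change was -0.26 (SE 0.14; adjusted p 0.164 in edgeR). Mal, a proteolipid of membrane rafts that carries myelin cargo to the sheath, had 47.0, 48.8, 37.0 and 44.6 CPM in homozygous replicates 15 to 18, against 75.0, 75.3, 48.0 and 46.5 CPM in wild-type replicates 7 to 10. Its wild-type libraries fell into a high pair (replicates 7 and 8) and a low pair (9 and 10), the low pair close to the homozygous values. The log2 fold change of Mal was -0.46 (SE 0.18; adjusted p 0.0655 in edgeR), and Mal was called without wild-type replicate 9 (-0.56, adjusted p 0.0440) or wild-type replicate 10 (-0.57, adjusted p 0.0328).

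**Figure D1:**
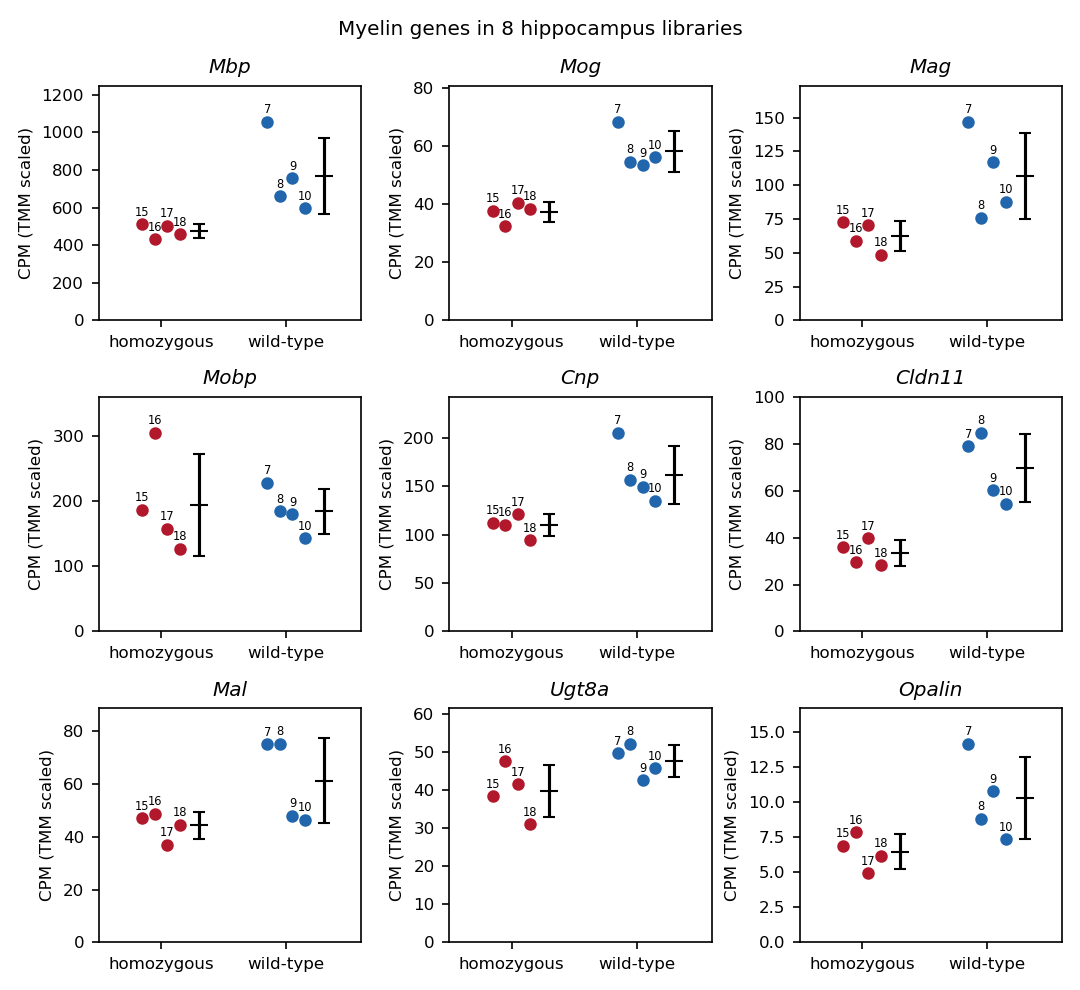
TMM-scaled CPM (vertical axis, from 0) of each of the 9 myelin genes in homozygous (red, left) and wild-type (blue, right) libraries, with the replicate number above each point and the mean and SD beside each group. Mbp, Mog, Mag, Cnp and Cldn11 have no overlap between the genotypes, and homozygous replicate 16 is the highest point for Mobp at 305 CPM.

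For 5 of the 9 genes (Mbp, Mog, Mag, Cnp and Cldn11) all 4 homozygous values lay below all 4 wild-type values, and for 0 genes above. Over all genes tested, 18.8% had such a separation downward and 18.8% upward. Among wild-type libraries, replicate 7 held the highest value for 6 of the 9 genes and replicate 10 the lowest for 6. Among homozygous libraries, replicate 16 was highest for 4 genes and replicate 18 lowest for 5. The mean deviation of the 9 genes from their genotype's mean, on the log2 scale, ran from -0.19 to 0.10 in homozygous and from -0.26 to 0.33 in wild-type libraries.

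Summed over the 9 genes, myelin transcripts took 1050, 1074, 1016 and 878 CPM in homozygous replicates 15 to 18, against 1922, 1354, 1418 and 1174 CPM in wild-type replicates 7 to 10. The means were 1005 ± 87.7 and 1467 ± 321 CPM in homozygous and wild-type libraries (SD, n = 4 each), a ratio of 0.685. The exact two-sided permutation test over the 8 libraries gave p = 0.0286, the smallest that 4 against 4 allows. Mbp made up 40.4% to 52.4% of the sum in homozygous and 48.8% to 54.9% in wild-type libraries. With Mbp left out, the difference in the summed CPM was -172 (exact permutation p 0.0571). No sum was made with the abundance trend removed. Marker sums of neurons, of astrocytes and of endothelial cells with pericytes, given below, were also lower in all homozygous libraries. Those of microglia, Schwann cells and choroid plexus overlapped.

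**Figure D2:**
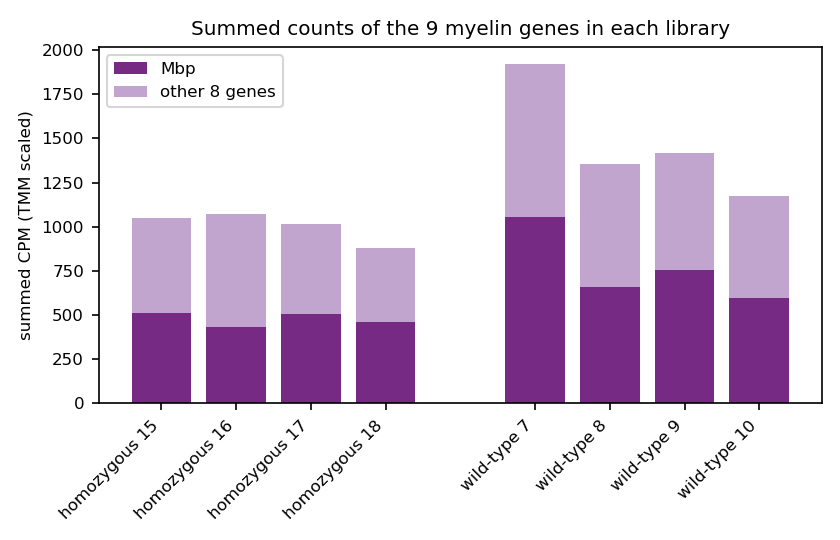
Summed TMM-scaled CPM of the 9 genes in each library (vertical axis, from 0), homozygous at left and wild-type at right, with Mbp in dark and the other 8 genes in light purple. The 4 homozygous bars run from 878 to 1074 and the 4 wild-type bars from 1174 to 1922.

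Levels can be compared between genes per kilobase of annotated exon. Mbp led in both genotypes, with a level of 56.3 ± 4.38 CPM per kb in homozygous and 90.6 ± 24.0 CPM per kb in wild-type libraries (SD, n = 4 each). Cnp came next, with a level of 30.1 ± 3.12 CPM per kb in homozygous and 44.4 ± 8.35 CPM per kb in wild-type libraries. Then came Mobp, Mog, Cldn11, Mal and Mag in homozygous libraries, from 28.4 down to 15.4 CPM per kb, and Cldn11, Mog, Mobp, Mag and Mal in wild-type libraries, from 37.2 down to 22.0 CPM per kb. Neighbours from Cnp to the last of these 5 overlapped in range in either genotype. Ugt8a (8.76 and 10.5 CPM per kb in homozygous and wild-type libraries) and Opalin (2.19 and 3.48 CPM per kb) stood apart below them. Cldn11 was at rank 5 in homozygous and rank 3 in wild-type libraries, and Mobp at rank 3 in homozygous and rank 5 in wild-type libraries.

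Fold changes in these libraries followed abundance, which bears on the set because most of it is abundant. When genes were split into 10 equal classes by mean CPM, class 10, the most abundant, held Mbp, Mobp and Cnp. There the median log2 fold change was -0.46 and 55.1% of genes were lower. In class 8, which holds Mog, Cldn11, Mal and Ugt8a, the median was -0.10 and 28.7% were lower. In class 3, where Opalin lies, the median was 0.22 and 8.45% were lower. Set within its own class, Cldn11 was below all but 4.00% of genes by log2 fold change, Opalin below all but 6.64%, Mag below all but 10.9% and Mog below all but 13.8%. Mbp (29.0%), Cnp (38.8%) and Mobp (78.5%) were nearer to the middle or above it.

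When a smooth curve of each library's log2 counts on abundance was removed before the edgeR fit, 3 of the 9 genes were lower, beside 16.5% of all genes. These were Cldn11 (log2 fold change -0.95, adjusted p 0.00212), Mog (-0.54, adjusted p 0.00625) and Opalin (-0.88, adjusted p 0.0180), while Mag narrowly missed (-0.54, adjusted p 0.0546). Mbp was then at 0.06 (adjusted p 0.807) and Cnp at -0.20 (adjusted p 0.298). With a curve on the density of counts along the exons (per kilobase) removed instead, 2 genes were lower, beside 15.2% of all genes: Cldn11 (-0.57, adjusted p 0.0322) and Opalin (-0.86, adjusted p 0.0195). Mog was then at -0.13 (adjusted p 0.412), Mag at -0.36 (adjusted p 0.170), Mbp at 0.07 and Cnp at 0.03.

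**Figure D3:**
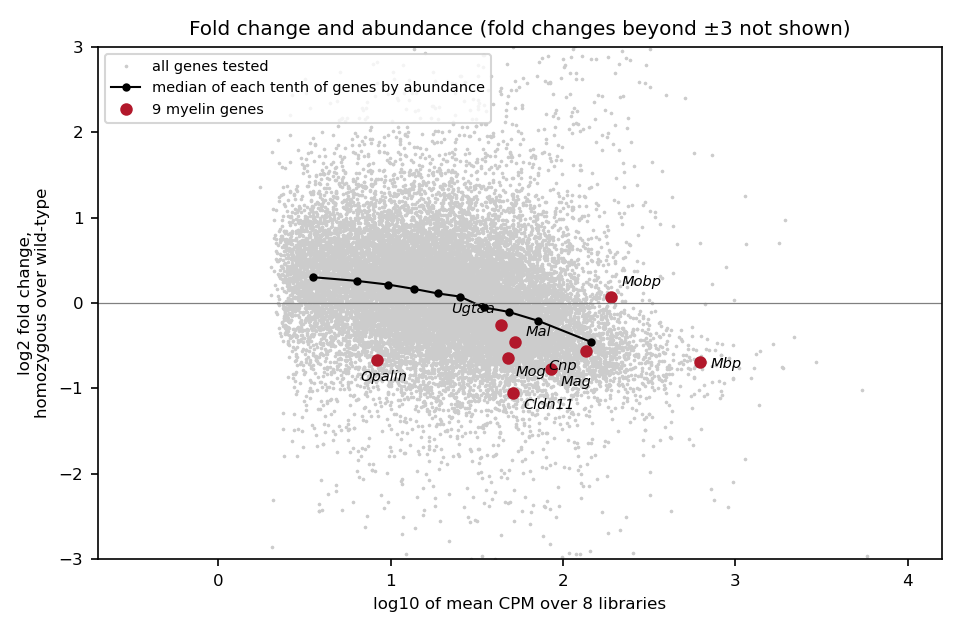
Log2 fold change of homozygous over wild-type (vertical axis, limited to ±3) against log10 of the mean CPM over 8 libraries (horizontal axis) for all genes tested (grey), with the median of each of 10 classes of genes by abundance (black line) and the 9 myelin genes (red). The line runs from 0.30 in the lowest to -0.46 in the highest class; Mbp and Cnp lie near it and Cldn11, Mag, Mog and Opalin below it.

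**Figure D4:**
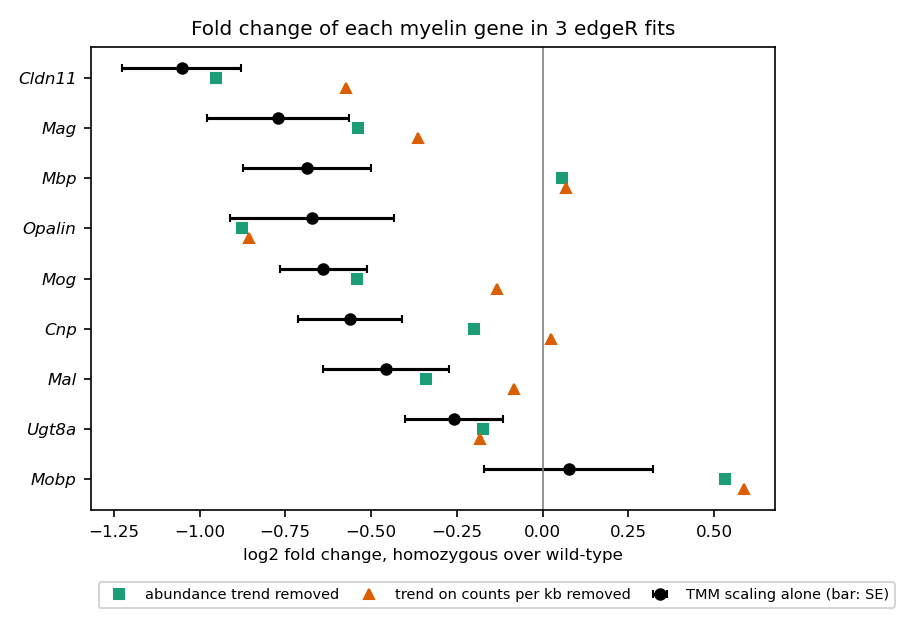
Log2 fold change of homozygous over wild-type (horizontal axis) of each gene with TMM scaling alone (black, bar: SE), with the abundance trend removed (green squares) and with the density trend removed (orange triangles). Cldn11 and Opalin stay below -0.5 in all 3, whereas Mbp moves from -0.69 to 0.06 and 0.07.

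Other components of the sheath were mixed. Each list below is read beside the 20.4% of all genes that were lower and the 20.7% that were higher. For the other fits these shares were 11.8% and 32.4% with library totals alone and 16.5% and 17.9% with the abundance trend removed. They were 15.2% and 16.9% with the density trend removed. Of 25 membrane, junction and cytoskeleton genes of myelin, 9 were lower, 3 higher and 13 neither, with a median log2 fold change of -0.16. With library totals alone 6 were lower and 3 higher, with the abundance trend removed 5 and 4, and with the density trend removed 5 and 3. Gjc3, a connexin of glia, had 60.9, 63.3, 67.1 and 44.3 CPM in homozygous replicates 15 to 18, against 342, 363, 231 and 550 CPM in wild-type replicates 7 to 10. It was the furthest down of this list (log2 fold change -2.66, SE 0.25; adjusted p 3.78e-05 in edgeR), and the groups lay far apart. The raft proteolipid plasmolipin, Pllp (-1.48, SE 0.17), the oligodendrocyte-myelin glycoprotein gene Omg (-1.12, SE 0.15), the tubulin-binding gene Tppp (-0.77, SE 0.15) and the proteolipid-family gene Gpm6b (-0.90, SE 0.16) fell as well, with adjusted p of at most 0.00222 in edgeR. After removal of the abundance trend Tppp (-0.10) and Gpm6b (-0.27) missed the threshold, while Gjc3 (-2.29), Pllp (-1.38) and Omg (-1.04) passed it.

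Enzymes that make myelin lipids were lower in 7 of 25 genes and higher in 3, with a median log2 fold change of -0.31. The counts were 6 lower and 6 higher with library totals alone, 5 and 4 with the abundance trend removed, and 4 and 5 with the density trend removed, where more rose than fell. The cholesterol synthesis gene Lss (lanosterol synthase) fell to 17.2 ± 2.002 CPM in homozygous libraries, against 38.6 ± 4.06 CPM in wild-type libraries (SD, n = 4 each; log2 fold change -1.15, adjusted p 0.000169 in edgeR). Degs1, the desaturase that completes ceramide, fell (-0.86, SE 0.13), as did Scd2, a fatty acid desaturase (-0.83, SE 0.14), which missed the threshold once the abundance trend was removed (-0.19). Elovl7, an elongase of long-chain fatty acids, rose to 189, 232, 729 and 400 CPM in homozygous replicates 15, 16, 17 and 18, against 78.0, 95.3, 69.1 and 103 CPM in wild-type replicates 7, 8, 9 and 10 (log2 fold change 2.17, adjusted p 0.00118 in edgeR). Fa2h and Gal3st1 hydroxylate and sulfate the galactolipid that Ugt8a makes. Both were named after their values were seen, and both passed in neither direction (-0.29 and -0.34). For both all homozygous values lay below all wild-type values, as for 18.8% of all genes tested. The gap for Fa2h was narrow, from 18.88 CPM in homozygous replicate 16 to 18.93 CPM in wild-type replicate 10. Gal3st1 was called lower in 1 of 17 fits, the one with the abundance trend removed (-0.46, adjusted p 0.0283 in edgeR), and Fa2h in 0.

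Among 30 marker genes of mature oligodendrocytes that are not sheath proteins, 10 were lower, 3 higher and 17 neither, with a median log2 fold change of -0.23. With library totals alone, where 32.4% of all genes were higher and 11.8% lower, 4 were lower and 5 higher. The counts were 4 lower and 3 higher with the abundance trend removed and 5 and 1 with the density trend removed. Car2, the cytosolic carbonic anhydrase of oligodendrocytes, had 51.4, 56.3, 47.4 and 42.3 CPM in homozygous replicates 15 to 18, against 128, 94.3, 114 and 79.7 CPM in wild-type replicates 7 to 10. The groups did not overlap (log2 fold change -1.07, SE 0.16; adjusted p 0.000630 in edgeR). Qdpr, which regenerates tetrahydrobiopterin (-0.54, SE 0.12), and Plekhb1 (-0.67, SE 0.17) were also lower, and both missed the threshold once the abundance trend was removed (-0.28 and -0.32). Edil3 was the second most abundant and did not pass (0.11, SE 0.17), but was called higher with the abundance trend removed (0.59, adjusted p 0.0182 in edgeR). Enpp2, the most abundant of the list, makes lysophosphatidic acid and is also a gene of choroid plexus. It had 470, 112, 344 and 93.0 CPM in homozygous replicates 15, 16, 17 and 18, against 590, 2784, 958 and 710 CPM in wild-type replicates 7, 8, 9 and 10 (-2.31, SE 0.60). Without wild-type replicate 8 the change was -1.58. Removing either trend ended the Enpp2 call in edgeR, at -1.71 for abundance (adjusted p 0.0568) and -1.61 for density (adjusted p 0.0696). The choroid plexus gene Ttr was likewise highest of the wild-type libraries in replicate 8 (1018 CPM) and higher in homozygous replicates 15 and 17 (594 and 723 CPM) than in 16 and 18 (29.0 and 18.5 CPM), and the part of choroid plexus in the Enpp2 values was not tested.

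Of 18 transcription factors of the lineage, 4 were higher, 3 lower and 11 neither, shares near those of all genes, and the median log2 fold change was 0.08. The counts were 7 higher and 2 lower with library totals alone, 4 and 4 with the abundance trend removed, and 4 and 5 with the density trend removed. Olig1, which promotes oligodendrocyte maturation, fell to 26.6 ± 5.92 CPM in homozygous libraries, against 49.4 ± 5.32 CPM in wild-type libraries (SD, n = 4 each; log2 fold change -0.89, adjusted p 0.00182 in edgeR). Zeb2, a repressor of inhibitory signals in the lineage that neurons express too, also fell (-1.10, SE 0.17), and Sox5, a precursor-stage factor that neurons also carry, rose (1.02, SE 0.13). Sox10, an activator of the myelin genes, is given here although it was chosen after its values were seen: it had 51.0, 94.96, 50.9 and 25.2 CPM in homozygous replicates 15, 16, 17 and 18, against 28.9, 19.7, 26.3 and 23.6 CPM in wild-type replicates 7, 8, 9 and 10. Homozygous replicate 18 lay within the wild-type range and replicate 16 was far above the others (log2 fold change 1.16, SE 0.31; adjusted p 0.0120 in edgeR; 0.78 without replicate 16). Myrf, the factor that switches on the mature program and is listed in the table under an older symbol, did not pass (0.02, SE 0.17; likewise chosen after its values were seen).

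Of 20 precursor and newly formed oligodendrocyte genes, 7 were lower, 2 higher and 11 neither, with a median log2 fold change of -0.17. With library totals alone, where 32.4% of all genes were higher and 11.8% lower, 4 were lower and 6 higher. The balance turned to 3 lower and 5 higher with the abundance trend removed, while 5 were lower and 2 higher with the density trend removed. Bcas1, a marker of newly formed myelinating cells (-0.71, SE 0.15), Fyn, a kinase that relays axonal contact (-0.54, SE 0.12), and the proteoglycan gene Cspg5 (-0.75, SE 0.15) were lower, with adjusted p of at most 0.00510 in edgeR. In edgeR, removing the abundance trend ended the Cspg5 call (-0.31, adjusted p 0.0771), and removing the density trend ended the Bcas1 call (-0.24, adjusted p 0.280). Cspg4, the NG2 proteoglycan of precursors and pericytes, was at 488, 1449, 81.0 and 173 CPM in homozygous replicates 15, 16, 17 and 18, against 43.7, 87.1, 139 and 109 CPM in wild-type replicates 7, 8, 9 and 10. The groups overlapped, and homozygous replicates 15 and 16 carried the difference (log2 fold change 2.53, SE 0.73; adjusted p 0.0167 in edgeR). The change was 1.38 without replicate 16, and the call was lost in limma-voom (adjusted p 0.0587).

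Genes of the axon that myelin contacts, and of the receptors through which myelin inhibits axon growth, were lower in 13 of 25 and higher in 2, with a median log2 fold change of -0.49. With library totals alone 9 were lower and 4 higher, with the abundance trend removed 8 and 3, and with the density trend removed 9 and 3. Rtn4r, the receptor for the inhibitors Nogo, Mag and Omg, had 22.8, 22.7, 23.1 and 19.1 CPM in homozygous replicates 15 to 18, against 51.0, 38.7, 43.6 and 38.9 CPM in wild-type replicates 7 to 10 (log2 fold change -0.97, SE 0.14; adjusted p 0.000392 in edgeR). Rtn4, which encodes Nogo itself (-0.60, SE 0.15), the axonal adhesion gene Cntn1 (-0.77, SE 0.13) and the heavy neurofilament gene Nefh (-0.92, SE 0.13) were lower. The co-receptor gene Ngfr, which encodes the p75 neurotrophin receptor, rose to 516, 323, 504 and 285 CPM in homozygous replicates 15, 16, 17 and 18, against 54.0, 70.2, 50.0 and 49.2 CPM in wild-type replicates 7, 8, 9 and 10 (log2 fold change 2.87, SE 0.23; adjusted p 1.16e-05 in edgeR). With the abundance trend removed, Rtn4 (0.05) and Cntn1 (-0.13) did not pass, whereas Rtn4r (-0.97), Nefh (-0.85) and Ngfr (3.25) did.

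Of the markers of 6 other groups of cells, those of neurons and astrocytes were mostly lower too, whereas the other 4 lists had at most 3 of 10 lower. Of 10 neuron markers 9 were lower and 1 higher, with a summed level of 2052 to 2377 CPM in homozygous and 3076 to 4109 CPM in wild-type libraries. Of 10 astrocyte markers 6 were lower and 1 higher, with sums of 2438 to 2612 CPM in homozygous and 3484 to 4304 CPM in wild-type libraries. The medians of these lists were -0.57 and -0.50, close to the -0.64 of the 9 myelin genes, and their most abundant genes were Slc17a7, a glutamate transporter of neurons (-0.92), Snap25 of the release machinery (-0.60), and Slc1a2 and Slc1a3, the glutamate transporters of astrocytes (-0.75 and -0.68). With the abundance trend removed, 2 neuron markers were lower and 1 higher, and 2 astrocyte markers lower and 1 higher. The medians of the neuron and astrocyte lists were then -0.16 and 0.008, and Snap25 (0.19) and Slc1a2 (0.21) had the other sign. With the density trend removed, 2 neuron markers were lower and 1 higher, and 1 astrocyte marker lower and 2 higher. With library totals alone, 5 neuron markers were lower and 1 higher, and 4 astrocyte markers lower and 2 higher. The call of Snap25 was also lost without wild-type replicate 7 (-0.53). Microglia markers were lower in 2 of 10, a share near that of all genes, namely C1qa (-0.62) and C1qb (-0.49), and higher in none, with sums of 246 to 329 CPM in homozygous and 253 to 306 CPM in wild-type libraries. Both microglia calls were lost with library totals alone and with the density trend removed, and that of C1qb also without homozygous replicate 15 or 16 or wild-type replicate 7 or 9. Schwann cells, the myelinating cells of peripheral nerve, were looked for with 10 markers that summed to 304 to 315 CPM in homozygous and 303 to 322 CPM in wild-type libraries, of which 3 were higher and 1, S100b, which is also among the astrocyte markers, lower. Egr2 (0.76) and Ncmap (0.75) were among those that rose, and which cells the counts of these 10 markers came from was not tested. Endothelial and pericyte markers (3 of 10 lower, 1 higher) summed to 272 to 298 CPM in homozygous and 335 to 411 CPM in wild-type libraries. With library totals alone 1 of these markers was lower and 1 higher. Choroid plexus and ependymal markers (1 of 10 lower, 2 higher) ranged widely in either genotype, from 220 to 989 CPM in homozygous and from 260 to 1269 CPM in wild-type libraries. No marker of any of these 6 lists was at 0 in all libraries, and the part of these cell types in the myelin values was not tested.

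**Figure D5:**
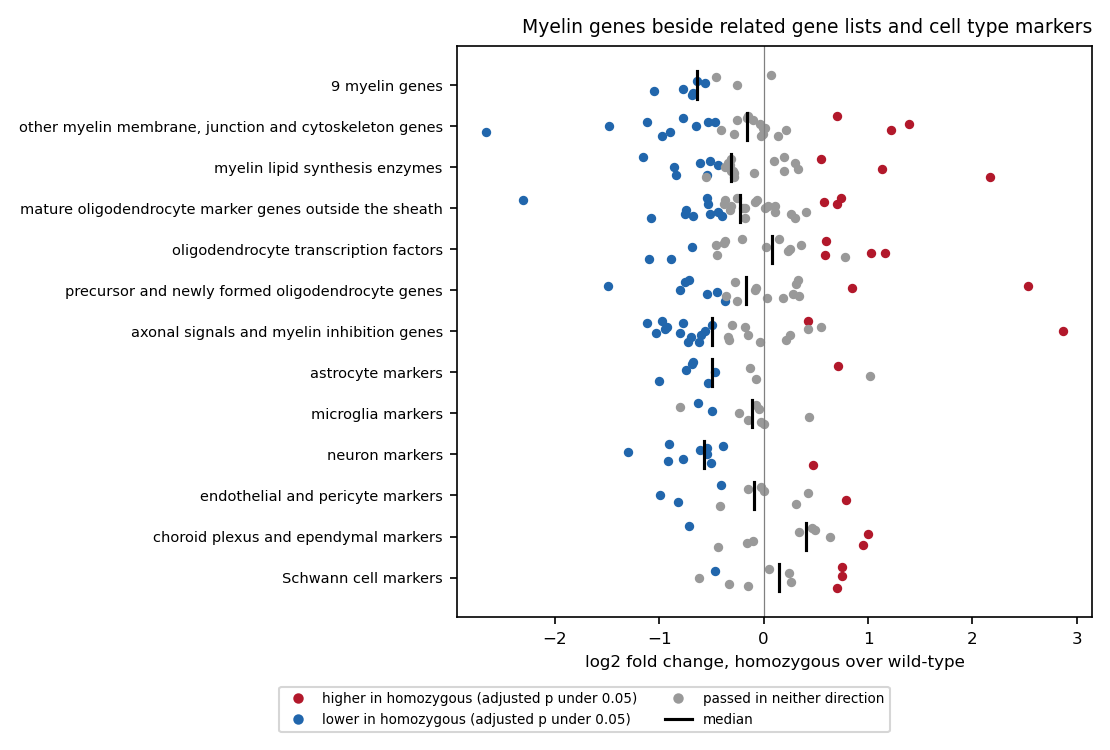
Log2 fold change of homozygous over wild-type (horizontal axis) of every tested gene in the 9 myelin genes, 6 related gene lists and 6 lists of cell type markers, red where higher, blue where lower (adjusted p under 0.05 in edgeR) and grey where neither, with the median of each list as a bar. The median of the 9 myelin genes (-0.64) is beside those of neuron (-0.57) and astrocyte (-0.50) markers and below those of the related lists.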

How the data were processed

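Values were raw counts for each gene symbol, in 1 table that the authors deposited, with mm10 as the build named in the submitters' processing notes. Per the labels' protocols, ribosomal RNA was depleted and libraries were sequenced on a SOLiD 4 instrument in pairs of 50 and 35 bp. Aligner, counter, strand setting, annotation: not given in the sources used here. Columns were matched to animals by their labels, and 0 columns belonged to no listed sample. Replicates of a genotype differed beyond sampling noise (chi-square per degree of freedom of at least 5.08 for every pair), so each counted as 1 sample.

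Genes were filtered with filterByExpr of edgeR 4.0.16 (R 4.3.3), which kept 20478 and removed 3600. Library sizes were scaled by TMM, and homozygous was tested against wild-type by the two-sided quasi-likelihood test with no covariate, adjusted by Benjamini-Hochberg over all genes tested. All 9 myelin genes passed the filter. Error is the SD over 4 libraries for CPM and the SE for log2 fold changes, and p-values cover only the spread between animals. DESeq2 1.42.0, limma 3.58.1 (voom), other scalings and filters, trend removal (loess, span 0.3) and leaving out each library were the alternatives. Exon lengths came from GENCODE M21, which matched 21436 entries by current and 2060 by older symbols and left 582 unmatched. The code was tested on simulated counts. Figures used Python 3.11.15 and matplotlib 3.10.9.

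The myelin genes, the related lists and the markers were chosen with earlier results of these data known. Genes named beside the 9, unless marked as chosen after their values were seen, were the 3 (or fewer) of smallest p among those past the threshold and the 2 of highest mean CPM in each list, and the 6 genes outside the lists of at least 20 CPM whose level varied most like the 9 within genotypes. Not each gene that the rule selects is described, and some are not reported here.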

Additional observations from a re-analysis of the deposited data

Results flagged for a closer look

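Single libraries stood far from the other 3 of their genotype for 6 named genes, by Dixon's ratio of the gap to the range at its 95% critical value, out of 144 groups of 4 looked at. Chance flags about 1 group in 20. None of the 9 myelin genes, nor their sum, was among them. Enpp2 was at 2784 CPM in wild-type replicate 8, and Pllp at 96.3 CPM in wild-type replicate 10. In homozygous replicate 18, Bcas1 was low at 59.0 CPM, Rtn4r low at 19.1 CPM, 9530059O14Rik low at 22.3 CPM and Rtn4 high at 427 CPM.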

How the results depend on the processing

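Of the 9 genes 6 were lower. With library totals as the only scaling 3 were, with the abundance trend removed 3, with the density trend removed 2, and with each library left out 5 to 7. In these 3 settings their median was -0.44, -0.34 and -0.13. In each of the 16 alternative fits 0 of the 9 were called higher. Library totals alone gave 6645 higher and 2412 lower genes, so that 73.4% of calls were upward, beside 50.4% with TMM, and a median of all genes of 0.25. Relative to that median the 9 stood at -0.69 with either scaling, which does not test the fall, since a scaling factor moves all genes of a library alike. With library totals alone Mbp (-0.48), Cnp (-0.36) and Opalin (-0.47) missed the threshold, as did Opalin in limma-voom (-0.64). The sign turned for Mbp with the abundance (0.056) or density (0.069) trend removed, for Cnp with the density trend removed (0.026) and for Mobp without homozygous replicate 16 (-0.23) or wild-type replicate 10 (-0.04), its range with a library left out being -0.23 to 0.22. The difference in summed CPM was -463. It was -288 with library totals alone and -172 without Mbp (exact permutation p 0.0571 each). With a library left out it ran from -560 to -311, at the smallest p that 3 against 4 allows.

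The fits for related genes were added after the data were seen. With a library left out, 8 to 10 sheath genes, 7 to 12 mature markers (with 0 to 3 higher) and 10 to 13 axonal genes were lower. With the density trend removed the sign turned for Tppp (0.017), Qdpr (0.14), Rtn4 (0.12), Snap25 (0.23), Slc1a2 (0.11), S100b (0.14), Cyfip2 (0.18) and Myrf (-0.085), and with the abundance trend removed for Rtn4 (0.054), Snap25 (0.19), Slc1a2 (0.21) and Cyfip2 (0.13). Among genes not called, it also turned for Myrf in DESeq2 (-0.009) and with a library left out (-0.075 to 0.18), and for Edil3 with a library left out (-0.043 to 0.26). The cause of these changes was not tested. No paired analysis was possible because the genotypes share no replicate number. Depth limits Opalin most, at 17 to 67 counts in a library.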

Other observations

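Among 10845 genes of at least 20 CPM, genes outside the lists whose log2 CPM, centred on its genotype mean, was among the most like the mean of the 9 myelin genes over the 8 libraries were 4933439F18Rik (likeness, as Pearson's r, 0.96), Cyfip2, which encodes a subunit of the actin-regulating WAVE complex (0.95), 9530059O14Rik (0.95), Ptprs, a receptor tyrosine phosphatase (0.94), and the scaffold gene Sash1 (0.91). The median over all 10845 was 0.03 and the 90th percentile 0.52. Ptprs was at 198, 193, 185 and 157 CPM in homozygous replicates 15 to 18, against 452, 366, 330 and 332 CPM in wild-type replicates 7 to 10 (log2 fold change -1.01, adjusted p 0.000541 in edgeR). Cyfip2 was lower as well (-0.39, adjusted p 0.0416 in edgeR), a call lost when any library but wild-type replicate 10 was left out, and the other 3 of these passed in neither direction.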
